A study of Mus musculus with 6 samples.

Results

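The genes described here are 47 factors that process the precursor of 18S ribosomal RNA and assemble the small subunit of the ribosome, found by symbol in a table of 55291 gene symbols; the list names factors of 18S processing, the step where NAT10 acts. They were measured in mouse oocytes at the end of growth with and without NAT10. All 47 symbols were found in the table, and all 47 passed the filter on low counts. Each library was made from 10 oocytes, with 3 libraries labelled WT and 3 labelled Gdf9-cre Nat10 cKO, in which Cre driven by the promoter of Gdf9, a gene active in oocytes, removes Nat10 in the oocyte; the titles of these libraries say gKO and their genotype labels cKO. Oocytes of both groups came from mature females given PMSG, a gonadotropin that makes follicles grow, 36 to 48 h earlier per the extract protocol and 32 to 48 h earlier per the design text. The sources used here give neither the age of the females, nor any allele of the WT females, nor whether the 3 pools of a group came from different females. The p-values therefore measure the spread between pools, which may be partly technical. Messenger RNA was primed at its poly(A) tail and amplified by Smart-seq2. Levels are shares of a library's reads, except on the deposited values described below. Shares do not show the amount of RNA per oocyte. For any other cell type in a pool, fewer cells and less RNA per cell cannot be told apart.

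The small subunit begins as a very large particle, the small-subunit processome, that forms on the precursor RNA while RNA polymerase I is still making it. The U3 small nucleolar ribonucleoprotein and the protein complexes UTP-A, UTP-B and UTP-C fold the precursor and hold it for cleavage, methyltransferases mark the 18S part, and late factors carry the particle to the cytoplasm and trim the end of 18S RNA. NAT10 works inside this particle, where it acetylates cytidines of 18S RNA, and it also acetylates transfer RNA and has been reported to acetylate messenger RNA. A growing oocyte makes and stores ribosomes for the embryo, and ribosomal RNA synthesis falls when the oocyte reaches full size. The messages of 47 proteins were measured here; ribosomal RNA processing itself was not.

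The 3 WT libraries held 33.5 to 65.5 M reads on genes and the 3 Nat10 cKO libraries 47.4 to 74.1 M. Nat10 itself was at 42.1, 50.1 and 39.4 CPM (reads of a gene scaled to a fixed library total, after TMM scaling) in the WT libraries and at 5.72, 5.97 and 6.32 CPM in the Nat10 cKO libraries, a log2 change of -2.67 (SE 0.129, limma adjusted p = 4.28e-08). Exons outside the deleted part still count, so these reads do not measure intact Nat10. Of 10 oocyte markers, Gdf9, Bmp15 and the zona genes among them, none was near 0. Their sum ran from 20029 to 20721 CPM over the WT libraries and from 25185 to 30141 CPM over those without NAT10. By the test given below, 8 of these 10 markers were called higher and 1 lower. The mean of Oosp1 went down, from 1964 CPM (WT) to 1354 CPM (Nat10 cKO), while that of Zp2 went up, from 2885 to 5629 CPM. Markers of granulosa cells summed to 115 to 128 CPM in WT and 116 to 127 CPM in Nat10 cKO libraries, led by Cyp19a1 (mean 52.2 and 41.1 CPM), Nr5a2 (29.6 and 34.9), Gata4 (22.1 and 24.9) and Kitl (8.66 and 10.4). Of the 11 granulosa markers, Foxl2, Amh and Hsd17b1 were under 1 CPM in all 6 libraries. Among the 9 that were tested, 1 was called higher and 1 lower, so the sum hides changes in both directions. The one called higher was Inha, at a mean of 2.00 CPM (WT) and 5.51 CPM (Nat10 cKO). Markers of theca, stroma and endothelium summed to 94.98 to 101 CPM in WT and 93.2 to 107 CPM in Nat10 cKO. Of these 10 markers 6 were tested, with 1 called higher and 2 lower. The mean of Pecam1 went from 40.7 CPM (WT) to 58.4 CPM (Nat10 cKO), and that of Myh11 from 39.4 to 26.0 CPM. Cyp17a1, Acta2, Col1a1, Col1a2 and Cdh5 were under 1 CPM in all 6 libraries. Blood and immune markers summed to 51.1 to 55.8 CPM in WT and 41.2 to 44.4 CPM in Nat10 cKO. Most of it was C1qb, and Ptprc was under 1 CPM in all 6. Of the 4 tested here, 0 were called higher and 1 lower. The part of these marker sums in the results was not tested.

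In oocytes without NAT10, 13 of the 47 factors rose, 1 fell and 33 did not pass the test, under TMM scaling. A call is an adjusted p under 0.05 in limma, with Benjamini-Hochberg adjustment over all 18353 tested genes. The share that rose was 27.7%, where 17.4% of all tested genes rose. The share that fell was 2.13%, where 17.6% of all tested genes fell. In either direction 29.8% of the factors were called, where 35.0% of all tested genes were. The factors were thus called about as often as other genes, and the calls lay on the side of higher levels. The median log2 change of the 47 was 0.19, beside 0.0010 for all tested genes, and 34 of the 47 had a change above 0. All 3 Nat10 cKO libraries lay above all 3 WT libraries for 19 factors, or 40.4%, where this held for 24.1% of all tested genes. All 3 lay below for 5 factors, or 10.6%, where this held for 24.2%. On the scale of log2(CPM + 1), 1 called factor, Nol11, reached a change of 1, and 4.48% of all tested genes were called with a change of at least that size. This scale understates the change of low messages: the mean level of Utp23, at about 1 CPM in WT, was 2.19 times as high in Nat10 cKO, and edgeR, a count model, gave it a log2 change of 1.14 (adjusted p = 0.00557).

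**Figure D1:**
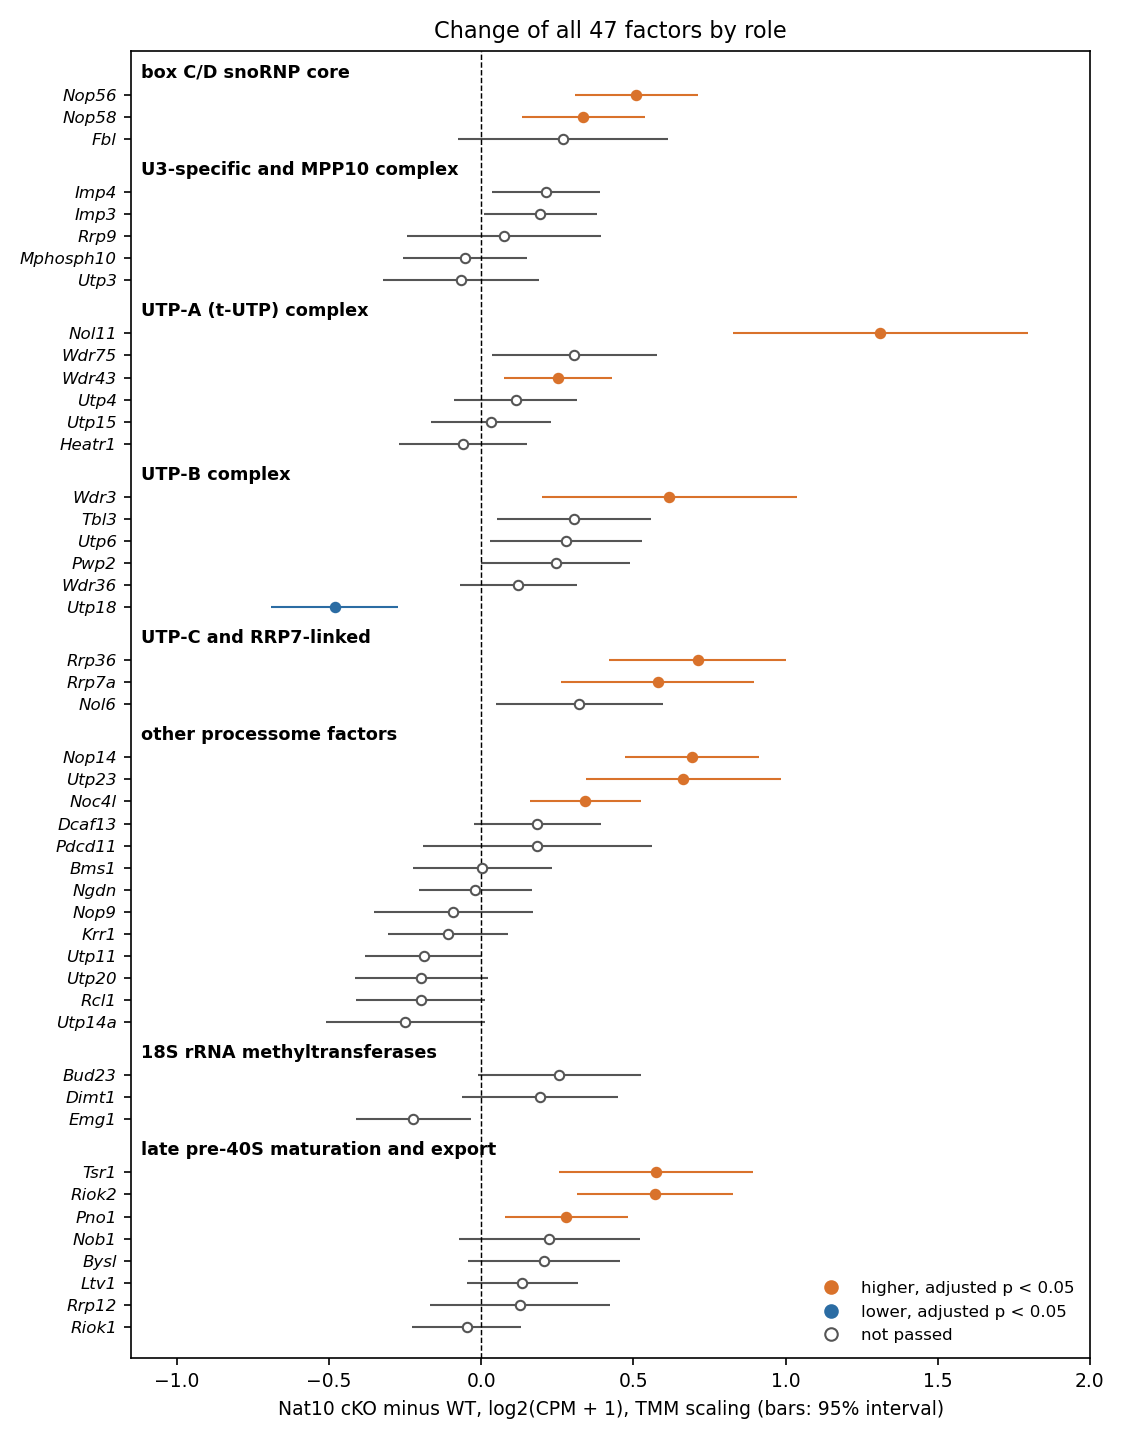
Change of each of the 47 factors, ordered by role, as the difference of Nat10 cKO and WT means of log2(CPM + 1), with 95% intervals from limma (n = 3 libraries per group). Filled points passed the threshold; Nol11 lies furthest to the right at 1.31 and Utp18 is the only filled point to the left of 0, at -0.48.

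How many factors are called depends on the scaling, and the side they lie on does in part. The values as deposited carry 1 factor per library, 1.38 for WT replicate 2 and 0.908 to 1.00 for the other 5. They were not brought to a common library total. Deposited totals were 33.5, 47.1 and 61.9 M in WT and 68.2, 43.0 and 66.2 M in Nat10 cKO libraries. The part of these totals in the results on the deposited values was not tested. On these deposited values 2 factors rose and 0 fell (6.58% and 1.39% of all tested genes, 7.97% in either direction), and the median of the 47 was 0.55 while that of all genes moved to 0.24. When the deposited factors were applied to each gene's share of its library's reads, 1 rose and 1 fell (5.60% and 16.5% of all tested genes, 22.1% in either direction), and the median was -0.019 beside -0.15 for all genes. Relative to the median of all genes, the median factor was therefore 0.19, 0.31 and 0.13 higher under the 3 scalings. Of the 47, 34, 41 and 32 lay above that median. These are not separate checks, because each scaling multiplies the same reads by 1 number per library. Such multipliers shift the log2 changes of all genes alike, apart from the effect of the 1 added before the log2. With library sizes alone 15 factors rose and 1 fell (18.6% and 16.2% of all tested genes), in DESeq2 17 rose and 1 fell (17.9% and 17.6%), and in edgeR 13 rose and 1 fell (16.6% and 17.2%). Statements below that a gene rose or fell refer to TMM scaling unless another is named. Counts of calls by role group below rest on 3 to 13 factors each and were not tested as sets. The shares to set beside them are the 17.4% higher and 17.6% lower of all tested genes.

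**Figure D2:**
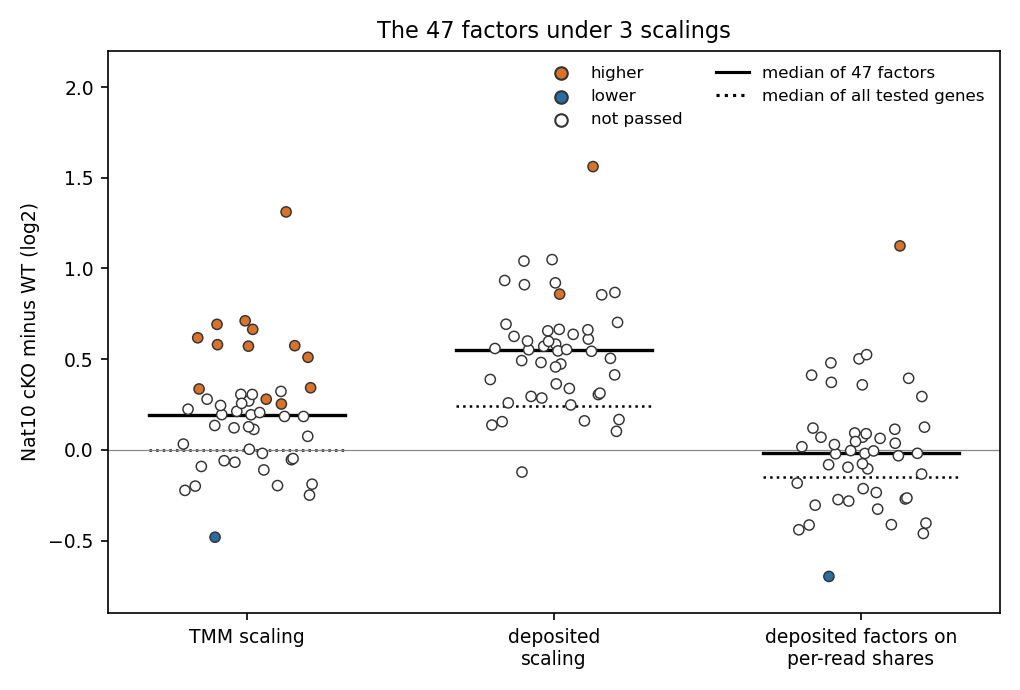
Log2 change (Nat10 cKO minus WT) of the 47 factors under TMM scaling, deposited scaling and deposited factors on per-read shares; each point is 1 gene, filled where it passed the threshold, with medians of the 47 (solid line) and of all tested genes (dotted line). The solid line lies above the dotted line in each column, while the number of filled points falls from 14 to 2 and 2.

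The promoters below are printed because the factors behind them passed the test and carry the sequence CACGTG, the E-box that MYC and other basic helix-loop-helix factors bind. They belong to the 4 factors with this sequence that changed most: Nol11, Rrp7a, Tsr1 and Utp18. The sequences are from RefSeq on GRCm38.p6, read in the direction of transcription, with the E-box in capitals. For Nol11, Rrp7a and Utp18 they are the 250 bases before the start site, where the E-box begins 43, 208 and 20 bases before it. For Tsr1, whose E-box begins 24 bases after the start site, 30 bases around it are shown.
Nol11 (chr11:107189382-107189631, minus strand): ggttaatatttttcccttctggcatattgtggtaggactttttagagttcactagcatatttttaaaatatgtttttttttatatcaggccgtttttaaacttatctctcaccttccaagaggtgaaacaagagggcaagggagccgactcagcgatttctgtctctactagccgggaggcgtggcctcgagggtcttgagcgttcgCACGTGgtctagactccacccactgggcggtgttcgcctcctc
Rrp7a (chr15:83122802-83123051, minus strand): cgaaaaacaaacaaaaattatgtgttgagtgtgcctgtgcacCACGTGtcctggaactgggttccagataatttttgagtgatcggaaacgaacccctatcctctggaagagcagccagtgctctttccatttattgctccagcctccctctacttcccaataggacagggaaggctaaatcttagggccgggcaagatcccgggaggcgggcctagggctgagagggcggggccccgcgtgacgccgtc
Utp18 (chr11:93885767-93886016, minus strand): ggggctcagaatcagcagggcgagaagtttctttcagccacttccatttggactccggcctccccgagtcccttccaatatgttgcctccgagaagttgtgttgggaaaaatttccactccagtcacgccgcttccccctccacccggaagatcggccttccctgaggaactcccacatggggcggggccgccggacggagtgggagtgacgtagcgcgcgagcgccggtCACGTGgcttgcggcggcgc
Tsr1 (chr11:74898092-74898121, plus strand): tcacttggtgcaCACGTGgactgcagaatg
CACGTG reads the same on both strands and was the only motif searched, in the 300 bases from 250 before to 50 after the start site. It occurred in 10 of the 38 factors with a promoter entry, or 26.3%, and in 8.09% of all 27025 genes of the RefSeq table. By promoter entry the shares were 25.6% of 39 and 7.15% of 32851. Among the 12458 tested genes with an entry the share was 10.8%. By call, 5 of 12 factors that rose held it, as did the 1 factor that fell, Utp18, and 4 of the 25 that did not pass. Among all tested genes it was held by 13.4% of those that rose and 9.32% of those that fell. The 10 factors are Imp4, Ltv1, Nol11, Pno1, Rrp7a, Tsr1, Utp4, Utp18, Utp20 and Wdr43. The match describes these letters in these windows and says nothing about binding.

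The core proteins of box C/D ribonucleoproteins, the class that U3 belongs to, were all above their WT mean. Nop56 (chr2:130274430-130279313), a core scaffold protein, was at 97.9, 95.5 and 88.6 CPM in WT and at 130, 148 and 126 CPM in Nat10 cKO oocytes. Nop58 (chr1:59684971-59719044), its partner in the same core, was at 89.7, 76.3 and 82.2 CPM in WT and 103, 109 and 101 CPM in Nat10 cKO. The groups did not overlap for either gene. Nop56 rose by 0.51 on the log2 scale (SE 0.0938, adjusted p = 0.00127) and Nop58 by 0.34 (SE 0.0933, adjusted p = 0.0137). Without WT replicate 3 the call of Nop58 was lost at the same size, 0.34 (adjusted p = 0.0528). Fbl, the fibrillarin methyltransferase of the core, was low, at 6.06, 9.13 and 6.84 CPM in WT and 9.15, 8.20 and 9.53 CPM in Nat10 cKO. WT replicate 2 reached the Nat10 cKO range, and the change of 0.27 did not pass (95% interval -0.08 to 0.61, adjusted p = 0.209); without WT replicate 2 it was 0.43 and passed (adjusted p = 0.0418). Nop56 holds 4 small nucleolar RNAs within annotated exons, each at 0 reads in every library, and Nop58 holds 1, also at 0. Priming was at poly(A) tails, and how reads shared by overlapping genes were counted is not stated. These zeros therefore do not measure the small nucleolar RNAs.

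Among the U3-specific protein and the MPP10 complex, which hold U3 to the precursor RNA, 0 of 5 factors passed. Imp3 and Imp4, small RNA-binding proteins of that complex, were close to the threshold. Imp3 was at 97.3, 105 and 95.6 CPM in WT and 112, 114 and 116 CPM in Nat10 cKO, a difference of 0.19 (95% interval 0.01 to 0.38, adjusted p = 0.0971). Imp4 was at 135, 140 and 133 CPM in WT and 155, 163 and 155 CPM in Nat10 cKO, a difference of 0.21 (95% interval 0.03 to 0.39, adjusted p = 0.0620). The groups did not overlap for either gene, and both passed without WT replicate 2 (adjusted p = 0.0421 and 0.0379). Imp4 also passed in DESeq2 (adjusted p = 0.0459) and with library sizes alone (0.0364). The other members of the group were Mphosph10, the scaffold of the complex, Utp3 and Rrp9, with changes of -0.05, -0.07 and 0.07 and overlapping groups.

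UTP-A is the complex that binds the newly made leader of the precursor first, and 2 of its 6 members rose. Nol11 (chr11:107166663-107189381), the partner of UTP4 in animal cells, was at 1.92, 3.30 and 3.65 CPM in WT and at 9.75, 11.1 and 5.89 CPM in Nat10 cKO oocytes. These levels rest on 62, 115 and 235 reads in WT and 729, 526 and 426 in Nat10 cKO. Every Nat10 cKO library was above every WT library, although Nat10 cKO replicate 3 was well below the other two. The ratio of the mean levels was 3.01, and the log2 change was 1.31 (SE 0.225, adjusted p = 0.000812). Nol11 was the factor with the largest change, and it passed in all 17 alternatives, with 1.56 on the deposited values (adjusted p = 0.00093) and 1.12 on per-read shares (adjusted p = 0.000223). Its promoter is the first of those printed above.

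Wdr43 (chr17:71615895-71659031), also known as UTP5, had very tight groups, at 113, 115 and 112 CPM in WT and 134, 136 and 135 CPM in Nat10 cKO. It rose by 0.25 (SE 0.0821, adjusted p = 0.0288). This call was lost without WT replicate 1 or 3 (adjusted p = 0.0738 and 0.0965), without Nat10 cKO replicate 1 or 2 (0.0940 and 0.0671) and without the filter (0.0587), with changes of 0.25 to 0.27. Wdr75, or UTP17, was at 175, 132 and 165 CPM in WT and 203, 220 and 162 CPM in Nat10 cKO, and its difference of 0.31 did not pass (adjusted p = 0.0757). It passed without Nat10 cKO replicate 3 (0.43, adjusted p = 0.00745) and with library sizes alone (0.34, adjusted p = 0.0433). Utp4, the partner of Nol11, was at 492, 420 and 459 CPM in WT and 505, 535 and 444 CPM in Nat10 cKO. Its groups overlapped, with a change of 0.11 (95% interval -0.09 to 0.32) under TMM scaling and -0.10 on per-read shares. Utp15 and Heatr1, the remaining members, differed by 0.03 and -0.06.

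UTP-B is a second scaffold of the particle, and here the calls went in opposite directions within 1 complex of 6 members. Utp18 (chr11:93859243-93885766), the subunit that brings the RNA exosome to the particle, was at 193, 160 and 179 CPM in WT and at 129, 116 and 135 CPM in Nat10 cKO oocytes. All 3 Nat10 cKO libraries were below all 3 WT libraries. Utp18 fell by 0.48 on the log2 scale (SE 0.097, adjusted p = 0.00226) and was the only one of the 47 factors to fall. On per-read shares it fell by 0.70 (adjusted p = 0.00839), while on the deposited values the change was -0.12 (adjusted p = 0.889), the lowest of the 47 there. Its call held in each of the 6 fits that left out 1 library.

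Wdr3 (chr3:100138180-100162407), or UTP12, was at 6.34, 12.5 and 11.5 CPM in WT and 16.1, 15.1 and 15.3 CPM in Nat10 cKO. WT replicate 1 was the low library of its group, and the groups did not overlap. Wdr3 rose by 0.62 (SE 0.195, adjusted p = 0.0252); without WT replicate 1 the change was 0.35 and not called (adjusted p = 0.0876), and without Nat10 cKO replicate 1 it was 0.60 (adjusted p = 0.0729). Without the filter its adjusted p was 0.0528. The other members of UTP-B, Tbl3, Utp6, Pwp2 and Wdr36, had differences of 0.31, 0.28, 0.24 and 0.12 and did not pass (adjusted p = 0.0584, 0.0773, 0.111 and 0.312). Tbl3 and Utp6 passed in DESeq2 (adjusted p = 0.0395 and 0.0447), and Tbl3 and Pwp2 passed without WT replicate 2 (0.0249 and 0.0126). Under TMM scaling Utp18 was thus the 1 member of its complex with a change below 0.

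The 3 factors of UTP-C and its RRP7 neighbourhood had groups that did not overlap, and 2 of them rose. Among all tested genes 24.1% had all Nat10 cKO libraries above all WT libraries, and 17.4% rose. Rrp36 (chr17:46666324-46674352), an early cleavage factor, was at 13.1, 17.98 and 13.7 CPM in WT and 23.9, 24.5 and 26.3 CPM in Nat10 cKO. It rose by 0.71 (SE 0.135, adjusted p = 0.00153), and its mean level was 1.67 times as high in Nat10 cKO. Rrp7a (chr15:83113433-83122801), the partner of the UTP-C complex, was at 10.3, 14.7 and 10.4 CPM in WT and 17.1, 18.8 and 17.9 CPM in Nat10 cKO. It rose by 0.58 (SE 0.148, adjusted p = 0.00858) and missed the threshold without WT replicate 3 (0.51, adjusted p = 0.0534). Nol6, or UTP22, differed by 0.32 (95% interval 0.05 to 0.60, adjusted p = 0.0647) and passed in DESeq2 (adjusted p = 0.0360) and without WT replicate 2 (0.0245).

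**Figure D3:**
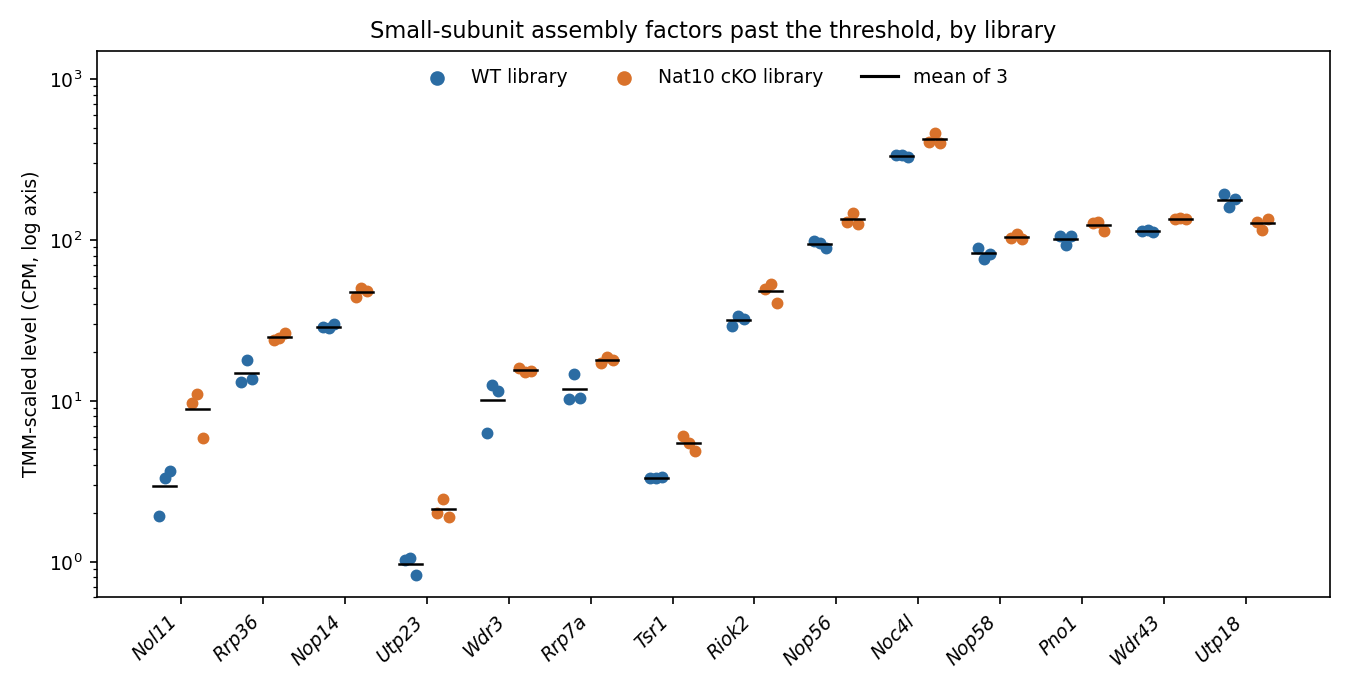
TMM-scaled level of the 14 called factors in each library on a log axis, with the mean of 3 libraries per group as a bar. For each gene the WT and Nat10 cKO libraries do not overlap; Nol11 is at the left with means of 2.96 and 8.90 CPM, and Utp18 at the right with 177 and 127 CPM.

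Of the 13 other processome factors, 3 rose and 10 did not pass, and these 10 were spread on both sides of 0. Nop14 (chr5:34638536-34660148) and Noc4l (chr5:110648418-110653417), whose proteins bind each other, both rose. Nop14 was at 28.8, 28.2 and 30.0 CPM in WT and 44.2, 50.1 and 48.2 CPM in Nat10 cKO, a log2 change of 0.69 (SE 0.102, adjusted p = 0.000322). Noc4l was at 337, 336 and 328 CPM in WT and 405, 465 and 402 CPM in Nat10 cKO, a log2 change of 0.34 (SE 0.085, adjusted p = 0.00748). In each gene the WT libraries lay close together and every Nat10 cKO library was above them. Utp23 (chr15:51877429-51884614), an early-acting RNA-binding factor, was the lowest of the 47 per length, with TMM-scaled levels of 1.02, 1.06 and 0.824 CPM in WT and 2.01, 2.46 and 1.91 CPM in Nat10 cKO. These values rest on 33 to 53 reads in WT and 117 to 150 in Nat10 cKO. Its mean level was 2.19 times as high in Nat10 cKO, and it rose by 0.66 on the log2(CPM + 1) scale (SE 0.149, adjusted p = 0.00425). On the deposited values Utp23 was, with Nol11, 1 of the 2 factors that rose (0.86, adjusted p = 0.0275), and on per-read shares it was at 0.52 (adjusted p = 0.0556).

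Log2 changes of the processome factors that did not pass ran from -0.25 (Utp14a) to 0.18 (Dcaf13). Larger changes lie within some of their 95% intervals, such as -0.51 to 0.01 for Utp14a and -0.19 to 0.56 for Pdcd11. For Utp11, Utp14a and Rcl1 the highest Nat10 cKO library lay below the lowest WT library, with differences of -0.19, -0.25 and -0.20 (adjusted p = 0.116, 0.126 and 0.131). Utp14a works with the helicase that frees U3, and Rcl1 is the partner of the GTPase BMS1. Bms1 itself was at 321, 360 and 304 CPM in WT and 320, 291 and 381 CPM in Nat10 cKO, a difference of 0.0036. Its 95% interval of -0.22 to 0.23 bounds the change at this precision. Ngdn was at 109, 106 and 101 CPM in WT and 100, 104 and 107 CPM in Nat10 cKO, with overlapping groups and an interval of -0.20 to 0.17. The others were Dcaf13 at 0.18, Pdcd11 at 0.18, Nop9 at -0.09, Krr1 at -0.11 and Utp20 at -0.20, each with overlapping groups.

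The methyltransferases act on 18S RNA as NAT10 does, and 0 of 3 passed. Emg1, which methylates a pseudouridine of 18S RNA, was at 360, 305 and 311 CPM in WT and 277, 279 and 279 CPM in Nat10 cKO. The Nat10 cKO libraries were tightly grouped and all below WT, with a difference of -0.22 (95% interval -0.41 to -0.04, adjusted p = 0.0622) that passed without WT replicate 2 (-0.26, adjusted p = 0.0329). On the deposited values its sign turned, to 0.14 (adjusted p = 0.875). Bud23, which makes the methylguanosine of 18S RNA, was at 18.2, 23.4 and 18.9 CPM in WT and 24.4, 25.2 and 23.0 CPM in Nat10 cKO. WT replicate 2 overlapped the Nat10 cKO range, and the difference was 0.26 (95% interval -0.01 to 0.52, adjusted p = 0.127), or 0.37 without that library (adjusted p = 0.0273). Dimt1, the dimethyladenosine enzyme, differed by 0.19 (95% interval -0.06 to 0.45).

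Late factors act on the pre-40S particle in the nucleus and cytoplasm, and 3 of 8 rose. Riok2 (chr17:17374309-17394899), an atypical kinase of the cytoplasmic steps, was at 29.3, 33.8 and 32.4 CPM in WT and 49.8, 53.4 and 40.8 CPM in Nat10 cKO, a log2 change of 0.57 (SE 0.119, adjusted p = 0.00273). Tsr1 (chr11:74898071-74909342), a GTPase-like protein that blocks early joining of the subunits, was at 3.34, 3.30 and 3.36 CPM in WT and 6.03, 5.47 and 4.91 CPM in Nat10 cKO. It rose by 0.57 (SE 0.148, adjusted p = 0.00908), or by 0.52 without Nat10 cKO replicate 1, where it was not called (adjusted p = 0.0585). For Riok2 and Tsr1 alike, each Nat10 cKO library was above each WT library. Pno1 (chr11:17203198-17211568), the partner of the nuclease NOB1, was at 106, 93.5 and 105 CPM in WT and 127, 130 and 114 CPM in Nat10 cKO. Its rise of 0.28 (SE 0.0941, adjusted p = 0.0340) was called in only 1 of the 6 fits that left out a library, the one without Nat10 cKO replicate 3. Without WT replicate 1, 2 or 3 its adjusted p was 0.0528, 0.0708 and 0.0698, without Nat10 cKO replicate 1 or 2 it was 0.122 and 0.106, and without the filter it was 0.0696. Nob1, which cuts the end of 18S RNA, differed by 0.22 and did not pass (adjusted p = 0.225). Riok1, the kinase related to RIOK2, was at 514, 462 and 493 CPM in WT and 476, 447 and 498 CPM in Nat10 cKO, with a difference of -0.05 (95% interval -0.23 to 0.13). Bysl, Ltv1 and Rrp12 differed by 0.21, 0.13 and 0.13 and did not pass.

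The 47 messages covered a wide range of levels, also among proteins of 1 complex. Per kilobase of the union of a gene's exons, the WT level was 0.324 CPM for Utp23 and 132 CPM for Utp4, with a median of 10.7 CPM. The 4 highest WT levels per kilobase were 132 ± 10.5 CPM for Utp4, 128 ± 1.87 CPM for Noc4l, 108 ± 5.63 CPM for Imp3 and 71.0 ± 2.53 CPM for Ngdn (SD, n = 3). Utp4 and Noc4l, next to each other in that order, differed by less than the SD of Utp4. Next came Emg1 at 70.3 ± 6.53 CPM per kilobase, within its own SD of Ngdn. The lowest were Utp23 at 0.324 ± 0.0426, Nol11 at 0.552 ± 0.171, Tsr1 at 0.869 ± 0.00724 and Pdcd11 at 0.954 ± 0.259 CPM per kilobase.

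Within UTP-A, the WT level per kilobase of Utp4 was 240 times that of Nol11, its partner protein, and in Nat10 cKO oocytes it was 86.2 times. With the longest coding transcript as the length, chosen after the data were seen, the WT ratio was 218. In UTP-B the span was 25.5 times, from Wdr3 at 1.94 to Utp18 at 49.3 CPM per kilobase, and 11.9 times for the same pair in Nat10 cKO. In the box C/D core, Nop56 was 13.1 times as high as Fbl, at 1.75 CPM per kilobase, or 8.16 times with the transcript length. With that length the order at the top also changed: Emg1 came first at 315 CPM per kilobase, followed by Utp4 at 205, Riok1 at 179, Noc4l at 161, Dcaf13 at 123 and Imp3 at 108. Utp23, Nol11, Tsr1 and Pdcd11 were the 4 lowest with either length. The order of the 47 was nearly the same in both genotypes, with a rank correlation of 0.986 over 47 genes whose values share the same libraries.

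**Figure D4:**
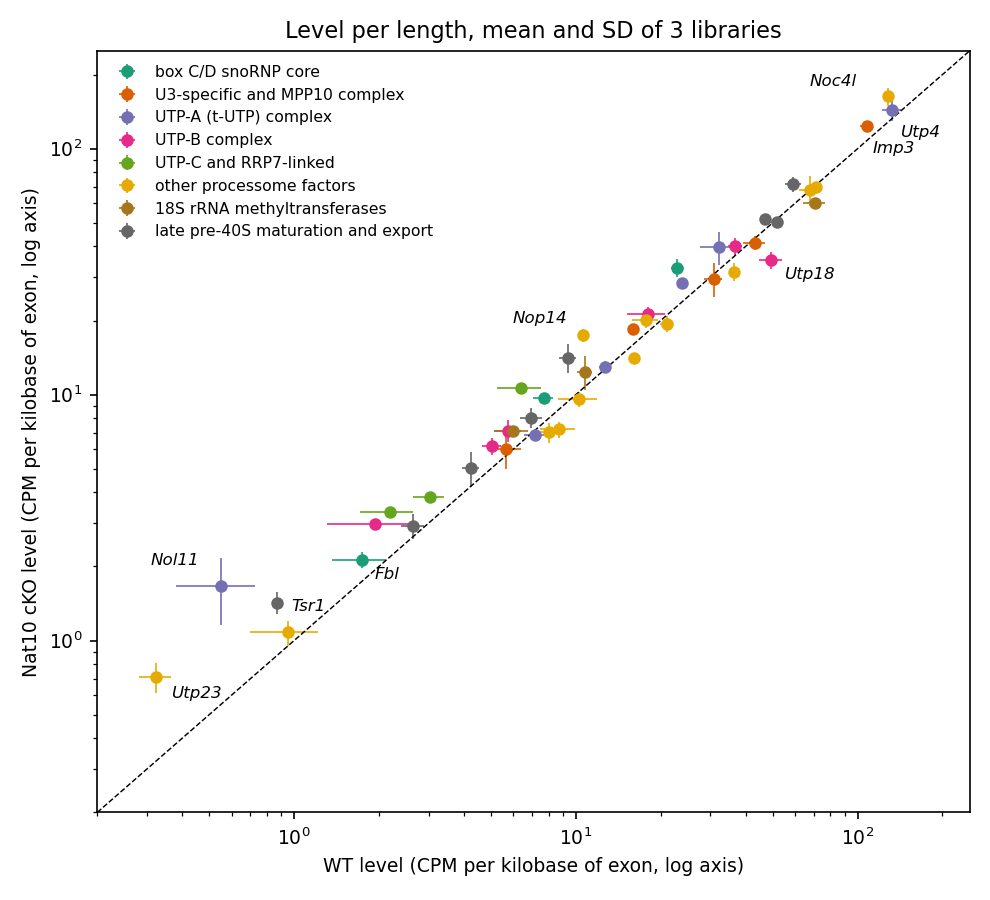
WT level against Nat10 cKO level of the 47 factors in CPM per kilobase of exon, both on log axes, with SD bars over 3 libraries and colours for the role groups; the dashed line marks equal levels. The points run from 0.324 CPM per kilobase (Utp23) to 132 (Utp4) in WT, and Nol11, Utp23 and Tsr1 at the low end lie above the line.

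The rises were found more among the rarer messages. All 12 factors with a mean under 20 CPM over the 6 libraries had a change above 0, 6 of them rose and 0 fell, and their median log2 change was 0.45. Among the 35 factors at 20 CPM or more, 7 rose and 1 fell, with a median of 0.13 and 22 changes above 0. Among all 7001 tested genes between 1 and 20 CPM, 20.9% rose and 19.8% fell, with a median of 0.0095. Among all 6741 genes at 20 CPM or more, 19.5% rose and 21.2% fell. The limit of 20 CPM was chosen after the values were seen, so the split is a description; Rrp36, at 19.9 CPM, lies just under it and Bud23, at 22.2 CPM, just over. With a limit of 50 CPM, 8 of 22 factors under it rose and 0 fell (36.4% and 0%), where 21.5% and 19.7% of all tested genes between 1 and 50 CPM did. At 50 CPM or more 5 of 25 factors rose and 1 fell (20% and 4%), where 17.2% and 22.3% of all tested genes did.

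**Figure D5:**
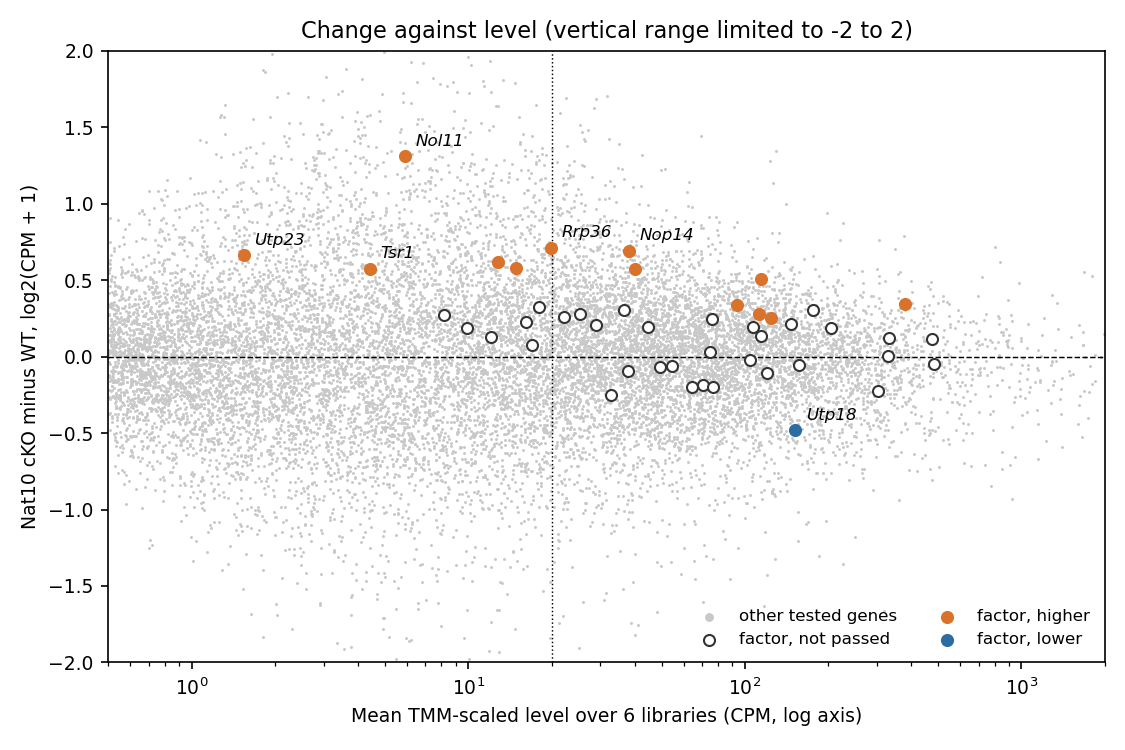
Log2 change (Nat10 cKO minus WT, log2(CPM + 1), TMM scaling) against the mean level of 6 libraries on a log axis for the 47 factors (circles, filled where called) and other tested genes (grey dots; those under 0.5 CPM or beyond the vertical range are not drawn). The dotted line marks 20 CPM; all 12 factors to its left lie above 0, while the grey dots lie evenly about 0.

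A wider set of 26 genes of the same pathway, outside the 47, was listed alongside them. Earlier results of these data were known by then, so the set is not an independent comparison. Of these 7 rose and 2 fell, or 26.9% and 7.69%, beside the 17.4% and 17.6% of all tested genes, with a median log2 change of 0.11. Such counts depend on the list, which does not hold every related gene. Utp14b, the paralog of Utp14a, is in neither list and fell by 0.79 (limma adjusted p = 0.00174) at a mean of 5.39 CPM. Other related genes outside both lists were not counted. Tsr2, which encodes a chaperone of a small-subunit protein, was at 3.37, 7.24 and 4.80 CPM in WT and 10.8, 10.9 and 9.57 CPM in Nat10 cKO, a log2 change of 0.94 (SE 0.199, adjusted p = 0.00304). Tsr2 was the 1 gene of this set that rose under all 3 scalings. Its change was 1.23 on the deposited values (adjusted p = 0.0213) and 0.74 on per-read shares (adjusted p = 0.0270). These levels rest on 109, 252 and 309 reads in WT and 804, 518 and 692 in Nat10 cKO. On the opposite strand, Fgd1 shares 30.25% of the exon bases of Tsr2, and Baiap3 shares 11.7% of those of Tsr3. Whether reads were counted by strand is not stated. Esf1, Tsr3, Ddx52 and Nol10 rose by 0.72, 0.50, 0.39 and 0.37. Tsr3 modifies 18S RNA late in the pathway, Ddx52 is an RNA helicase, and Esf1 and Nol10 are processome proteins. Ddx47, a helicase of the processome, was at 64.4, 76.2 and 68.1 CPM in WT and 55.2, 54.2 and 55.0 CPM in Nat10 cKO, and fell by 0.34 (adjusted p = 0.0163). On the deposited values its change was 0.019, and its call was lost without WT replicate 2, WT replicate 3 or Nat10 cKO replicate 1 (adjusted p = 0.0513, 0.0568 and 0.0704). Csnk1e, a kinase gene named here after its values were seen because it was the other fall, had a change of -0.30 (adjusted p = 0.0303), or 0.064 on the deposited values. Thumpd1, the adaptor that NAT10 uses on transfer RNA, was among the 17 that did not pass, with a difference of -0.09. The set had 4 rises without WT replicate 3 and 0 falls without Nat10 cKO replicate 1. It had 1 fall without Nat10 cKO replicate 2 and in each of the 3 fits that left out a WT library. Without WT replicate 2 that fall was neither Ddx47 nor Csnk1e (adjusted p = 0.0513 and 0.0886) but Fcf1 (-0.28, adjusted p = 0.0150).

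Exons of 24 of the 47 factors overlap exons of a gene on the opposite strand, 10 of the 14 called factors among them. The share of such overlaps over all tested genes was not computed, and a link between overlap and calls was not tested. The sources used here do not state whether reads were counted by strand. For Tsr1 the shared part is 32.3% of its exon bases, with Srr, itself at a mean of 3.45 CPM (WT) and 3.69 CPM (Nat10 cKO) and not called (adjusted p = 0.737). Rrp7a shares 12.5% with Serhl, at 12.7 and 9.90 CPM, and Serhl had a difference of -0.33 (adjusted p = 0.0611). Tbl3 shares 37.3% with Noxo1, at 3.79 and 2.37 CPM, which fell by 0.51 (adjusted p = 0.0451). Wdr3 shares 15.7% with Spag17, under 1 CPM in both groups, and 0.517% with Gdap2, which at 151 and 166 CPM was well above Wdr3 itself and was not called (0.14, adjusted p = 0.305). Nop56 shares 0.122% with Idh3b, at 30.1 and 35.2 CPM and not called (adjusted p = 0.119), and Wdr43 shares 1.26% with an antisense RNA. Pno1 shares 1.92% with Wdr92, which fell by 0.35 (adjusted p = 0.0279). The partners of Nol11, Nop14, Riok2 and Utp23 were each under 1 CPM. Dimt1 shares 31.9% with Kif2a, at 111 and 117 CPM, well above Dimt1 at 41.4 and 47.8 CPM.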

How the data were processed

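Messenger RNA of 6 pools of 10 oocytes was sequenced after Smart-seq2. The submitters' processing notes name mm10, featureCounts, STAR 2.7.10a and Trim Galore 0.6.7, with no settings, annotation or strand option. In the column of WT replicate 1 the authors deposited whole counts per gene. In the other 5 columns the authors deposited a scaled signal, whole reads times 1 factor per library; how the factors were derived is not stated, though ERCC spike-in RNA (0.2 µl at a 1000-fold dilution) was added for calibration per the design text. The smallest value of a column was taken as 1 read; all values above 0 (100%) were then whole multiples of it, within 0.001.

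Genes were kept by filterByExpr (minimum count 10), leaving 18353. The main test was limma 3.58.1 (trended, robust) on log2 of TMM-scaled CPM plus a pseudocount of 1, which understates the change of low genes, without a block, two-sided, with Benjamini-Hochberg adjustment over all tested genes. edgeR 4.0.16 and DESeq2 1.42.0 on the recovered reads were alternatives; all ran in R 4.3.3, with Python 3.11.15. Deposited scaling divided the deposited values by 1 constant and did not equalize library totals. On simulated data (17958 genes), limma recovered 37.8%, 75.0% and 87.1% of genes changed 1.5-fold, 2-fold and 4-fold and called 0.0338% of unchanged genes. Only 74, 56 and 62 genes were changed there, while 35% of all tested genes were called in the real data. The recovery and the rate of false calls therefore need not carry over to the real data. Lengths and positions are from GENCODE M21 (GRCm38, the assembly of mm10).

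The members, lists, role groups and tests were chosen with earlier results of these data known. The genes named are Nat10, every called factor, the 2 factors with the smallest p in role groups with fewer than 2 calls, the 4 most abundant per length, and the 6 other pathway genes with the smallest p among those called; others are named to account for every factor. Groups follow the sample titles. Promoters of 9 factors are missing from the RefSeq table.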

Additional observations from a re-analysis of the deposited data

How the results depend on the processing

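The direction of the 14 called factors was the same in all 238 combinations of factor and alternative, and the call was the same in 195. Of the 43 that were lost, 24 were lost under the scalings that use the deposited factors. All alternatives reuse the libraries in which the 14 were called, so these combinations are not separate checks. On the deposited values 2 factors rose and 0 fell, 1207 genes rose and 255 fell in all, and 1 and 0 of the other pathway genes did. On per-read shares 1 factor rose, 1027 of all genes rose, and 1 and 0 of the other pathway genes rose and fell. Falls of the other pathway genes were 1 with library sizes only and 0 without the filter. Leaving out 1 library gave 9 to 19 factors higher and 1 to 2 lower, 2108 to 3431 genes higher and 2201 to 3334 lower, and 4 to 7 and 0 to 3 of the other pathway genes. The highest count, 19, and the second fall, of Emg1, came without WT replicate 2, and the lowest count without WT replicate 3 or Nat10 cKO replicate 1. On the deposited values 12 factors turned from below to above 0, Emg1 (0.14) and Ngdn (0.34) among them, and 10 of the other pathway genes did, with the called Ddx47 (0.019) and Csnk1e (0.064). On per-read shares 13 factors and 8 of the other genes turned from above to below 0, Imp3 (-0.022), Imp4 (-0.0041) and Utp4 (-0.10) among them. Ngdn also turned with library sizes only (0.011) and when WT replicate 1 (0.0038) or Nat10 cKO replicate 1 (0.018) was left out, in a range of -0.043 to 0.018 over the 6 such fits. Each fit that left out a library turned 1 to 3 of the 47, none of them called. With the replicate number as a block, 11 factors rose and 1 fell, beside 3070 and 3164 of all genes and 7 and 2 of the other pathway genes, and Wdr43 and Pno1 were lost (adjusted p = 0.0637 and 0.0564). The labels do not say that a number marks a shared origin, and deviations of same-numbered libraries correlated at 0.0788, 0.0747 and -0.120, so the numbers were not taken to pair the libraries. Apart from the alternatives named, the cause of a lost call was not tested. Messages such as Utp23, at 33 to 53 reads in WT, set the limit of depth.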
